A study of Homo sapiens with 4 samples.

Results

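The regions described are 976 intergenic peaks of the transcription factor USF1 that were found in both of 2 peak lists and lie within 100 kb of a protein-coding gene. They were taken from 14300 peaks of list 1 (IP 1 against input 1), of which 5336 overlapped a peak of list 2 (IP 2 against input 2, 27325 peaks) by at least 1 bp. A member had its centre outside every protein-coding gene on chromosomes 1 to 22 and X, over 1 kb from the ends of all annotated genes of any kind, and at most 100 kb from the nearest end of a protein-coding gene. The cells were Huh7, a human hepatocellular carcinoma line, made to overexpress USF1 according to the design text of the series. In the USF1 IP libraries chromatin was precipitated with an antibody against the FLAG tag, and the input libraries hold Huh7 chromatin labelled as input. There were 4 libraries, with 47165647 tags in IP 1, 43942638 in IP 2, 46345938 in input 1 and 43562726 in input 2 after removal of duplicates. The labels number the replicates without saying whether they came from separate cultures, no untransfected or IgG library was used here, and Huh7 copy number and input tags at single peaks were not analysed here.

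USF1 is a bHLH-ZIP factor that binds as a dimer to the E-box, most often to the letters CACGTG. It is best known at promoters of metabolic, stress and housekeeping genes, and in the chicken beta-globin locus it is known to bind an insulator. Peaks between genes can fall in enhancers, insulators, unannotated promoters or repeats, and the gene that lies nearest to a peak is not always the one it acts on. In what follows the nearest gene is a position and carries no measurement of that gene's expression.

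The members were chosen by the peak calls of both lists, that is by overlap of called peaks and by position, so their folds, tag counts and false discovery rates (FDR) are descriptions, and no test was made on them. All such values given for a single peak are those of the authors. A fold divides the IP tags at the summit by the tags expected there from input and local background, and a tag count is the number of IP tags in the peak, not scaled to library size. With 2 lists, both values stand in place of an SD, and intervals on shares are 95% Wilson intervals that cover counting error only.

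Sequence was at hand for a few members, because their peaks overlapped RefSeq promoter windows of 300 bases that belong to transcript starts inside long non-coding RNA genes or beside the nearest gene. Of the 976 members, 11 overlapped such windows, and in 6 windows the summits of both lists fell inside. CACGTG, searched as a palindrome that reads the same on both strands, was in 2 of these 6 windows, against 7.27% of the 34961 promoter windows of the same length (2540). No other of the 12 windows overlapped by members held it, and 6 windows are too few to tell such a count from that share. The 2 windows with the motif are shown with CACGTG in capitals, 5′ to 3′ on the plus strand of GRCh38.p14 (RefSeq), because they give the letters under the summit of a member. The window in LOC107986478, at chr5:172630375-172630674, holds the motif 11 bp from the list 1 summit and 5 bp from the list 2 summit. The window in OIP5-AS1, a long non-coding RNA gene, is at chr15:41283740-41284039, and its motif lies 14 bp and 92 bp from those summits.
LOC107986478: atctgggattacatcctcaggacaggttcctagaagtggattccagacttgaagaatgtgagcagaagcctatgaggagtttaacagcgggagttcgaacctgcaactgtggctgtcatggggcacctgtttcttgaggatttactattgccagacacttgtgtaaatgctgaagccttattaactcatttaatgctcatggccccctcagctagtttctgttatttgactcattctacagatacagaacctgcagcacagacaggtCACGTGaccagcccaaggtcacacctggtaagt
OIP5-AS1: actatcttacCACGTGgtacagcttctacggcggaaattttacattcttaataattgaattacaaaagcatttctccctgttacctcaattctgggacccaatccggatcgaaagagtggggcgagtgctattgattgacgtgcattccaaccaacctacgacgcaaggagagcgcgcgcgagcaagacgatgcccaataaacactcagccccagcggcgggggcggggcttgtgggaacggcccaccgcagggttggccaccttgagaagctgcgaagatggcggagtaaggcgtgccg

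The LOC107986478 member, 10367 bp from the 5′ end of NEURL1B, had 7.01-fold and 101 tags in list 1 and 8.33-fold and 124 tags in list 2. The OIP5-AS1 member, 1967 bp from the 3′ end of CHP1, had 7.06-fold and 87 tags in list 1 and 4.71-fold and 90 tags in list 2. By the lower fold of the 2 lists they ranked 304 and 795 among the 976 members. The other 4 windows with both summits inside had folds between 3.92 and 6.53 and no CACGTG, which says only that these letters are not in those windows. The sequence under the other members was not analysed here.

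The strongest member stood apart from the others by tags in both lists and by fold in list 1, while in list 2 the member nearest to MMP20 came close with 42.85-fold. It spans chr17:74513226-74515680, 6721 bp past the 3′ end of CD300LB, which encodes a receptor of myeloid cells. It carried 1358 IP tags in list 1 and 1581 in list 2, the highest tag count of any peak in either list, and its folds of 45.12 and 53.46 ranked second in each. The summits lay 8 bp apart, and the FDR was 0 in both lists. The next fold in list 1 was 20.37, and the next member by tags had 672 and 757.

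Among the 10 members with the highest lower fold of the 2 lists, 8 were on autosomes and 2 on the X chromosome. NARF, a protein that binds prelamin A, had a member at chr17:82496753-82497894, 6786 bp past its 3′ end, with 20.37-fold and 193 tags in list 1 and 25.97-fold and 302 tags in list 2. The member nearest to MMP20, a protease of tooth enamel, lies inside the antisense gene MMP20-AS1 28800 bp from the 5′ end and had 18.5-fold in list 1 and 42.85-fold in list 2, the widest gap between lists among these 10. KCTD3 had a member 70161 bp from its 5′ end with 19.08-fold and 19.22-fold, which rest on 65 and 83 tags. Of the 10 members, 7 had the higher fold in list 2 and 10 had the higher tag count there.

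GPC3, the glypican that is widely used as a tissue marker of hepatocellular carcinoma, was the nearest protein-coding gene to a member at chrX:134075614-134076992, 90709 bp from its end. Its values were 18.12-fold and 210 tags in list 1 and 23.17-fold and 280 tags in list 2, with an FDR of 0 in each. A second strong X-linked member lies at chrX:134183536-134184097, between GPC3 and CCDC160 and 53366 bp from the 5′ end of CCDC160, with 16.86-fold and 18.23-fold. It has 2 weaker neighbours within 50 kb, with folds of 8.01 and 6.05 and of 10.56 and 13.1. The interval between these genes thus held 4 members. The remaining members of the first 10 were nearest to ARRDC2, an arrestin-domain protein (17.97-fold and 19.9-fold), GRHL1, an epithelial grainyhead-like factor (17.16-fold and 15.81-fold), EFR3A, a plasma membrane scaffold for lipid kinase (15.66-fold and 15.34-fold), and TRABD2B, a membrane protease that acts on Wnt proteins (18.73-fold and 14.56-fold). EFR3A and TRABD2B had list 1 FDRs of 13.46% and 7.42%, against 0.11% and 0.24% in list 2.

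**Figure D1:**
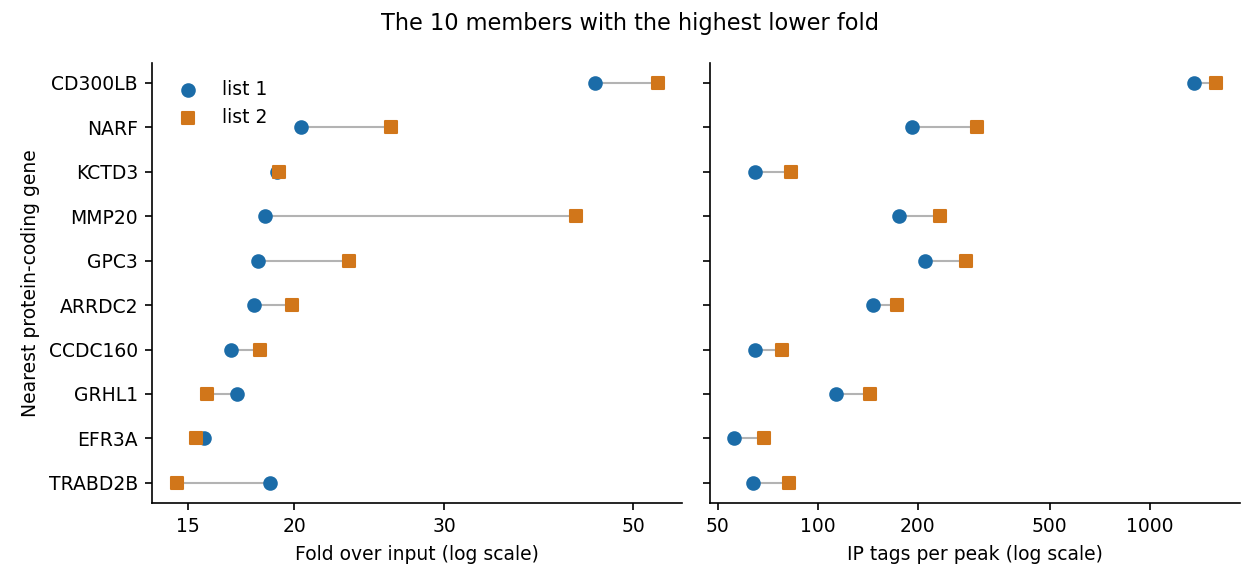
Fold over input (left, log scale) and IP tags per peak (right, log scale) of the 10 members with the highest lower fold, labelled by nearest protein-coding gene; circles are list 1, squares list 2 and a line joins the 2 values of a member. The CD300LB member is highest in both panels, at 45.12-fold and 1358 tags in list 1 and 53.46-fold and 1581 tags in list 2.

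Ranked by tags instead, the first 5 members were those nearest to CD300LB, ZNF92, ID1, IRF2BP2 and TENT4A. The peak at chr7:65429237-65431316, 29140 bp past the 3′ end of the zinc finger gene ZNF92, had 672 tags in list 1 and 757 in list 2 with 13.39-fold and 32.4-fold. The other 3 combined many tags with low folds over wide peaks. The member 9882 bp from the 5′ end of ID1, an inhibitor of bHLH factors, had 556 and 680 tags over 4675 and 6422 bp but 6.06-fold and 8.28-fold. IRF2BP2, a transcriptional corepressor, had one centred 1380 bp from its 5′ end with 384 and 441 tags and 3.77-fold and 2.93-fold. This wide peak overlapped promoter windows of IRF2BP2 itself, with both summits outside them. TENT4A, a poly(A) polymerase outside the canonical family, had a member 1261 bp away with 323 and 362 tags and 5.2-fold and 5.65-fold. Of the 14 members with at least 200 tags in both lists, 5 also had both folds at 8 or above. CD300LB and ZNF92 were the members to stand in the first 5 by tags and the first 20 by fold.

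An FDR of 5% or less in both lists was reached by 21 members (2.15%, 1.41 to 3.27%), against 4.76% of all shared peaks. Among shared peaks the share was 9.28% at protein-coding gene ends, 2.60% inside protein-coding genes and 1.39% in intergenic peaks beyond 100 kb. List 1 set the number of members: 21 members passed in list 1 and 530 in list 2, against 258 and 3371 of all 5336 shared peaks. In list 1, 513 members (52.6%) had an FDR of 100%. This held for 46.4% of all shared peaks and 53.9% of the shared intergenic peaks beyond 100 kb. The caller takes the FDR from peaks called with IP and input swapped. In list 2 the highest FDR of a member was 25.69%. An FDR of 0 in both lists was held by 9 of the 21, those nearest to CD300LB, NARF, MMP20, GPC3, ARRDC2, GRHL1, SLCO4A1 (an organic anion transporter), PLA2G1B (a secreted phospholipase) and ZNF92. The other 12 lay nearest to CCDC160, UBE2L5, ATXN3L, DYNC1H1, PPP1R3C, ZNF850, CFAP36, EGFR, TMEM132C, GYPC, NCOA3 and GLDC, with folds of 9.44 to 19.68 in list 1 and 10.74 to 18.47 in list 2. Among their nearest genes are those of the dynein heavy chain (DYNC1H1), a subunit that targets a phosphatase to glycogen (PPP1R3C), a nuclear receptor coactivator (NCOA3) and the glycine decarboxylase of mitochondria (GLDC).

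Across all members the fold had a median of 6.6 in list 1 and 7.26 in list 2. The interquartile range was 5.4 to 8.15 in list 1 and 5.70 to 9.21 in list 2, and the lowest values were 3.05 and 2.8. Both folds reached 8 in 175 members (17.9%, 15.7 to 20.5%), against 18.2% of all shared peaks, a share near that background. Tag counts had a median of 51 in list 1 and 58 in list 2, against 60 and 68 for all shared peaks. The higher count was in list 2 for 610 members (62.5%), a share that was not computed for all shared peaks. The fold was higher in list 2 for 601 members (61.6%), against 63.0% of all shared peaks, again near the background. Between lists the fold differed by a factor of 2 or more in 34 members, of which 29 were higher in list 2 and 5 in list 1. Such differences were not counted over all shared peaks, so these counts are not read as particular to the members. The largest ratio toward list 2 was at KMT2E, a chromatin protein (3.93-fold and 11.11-fold), and the largest toward list 1 at HNRNPA1L3 (9.1-fold and 3.19-fold), both named after their values were seen.

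**Figure D2:**
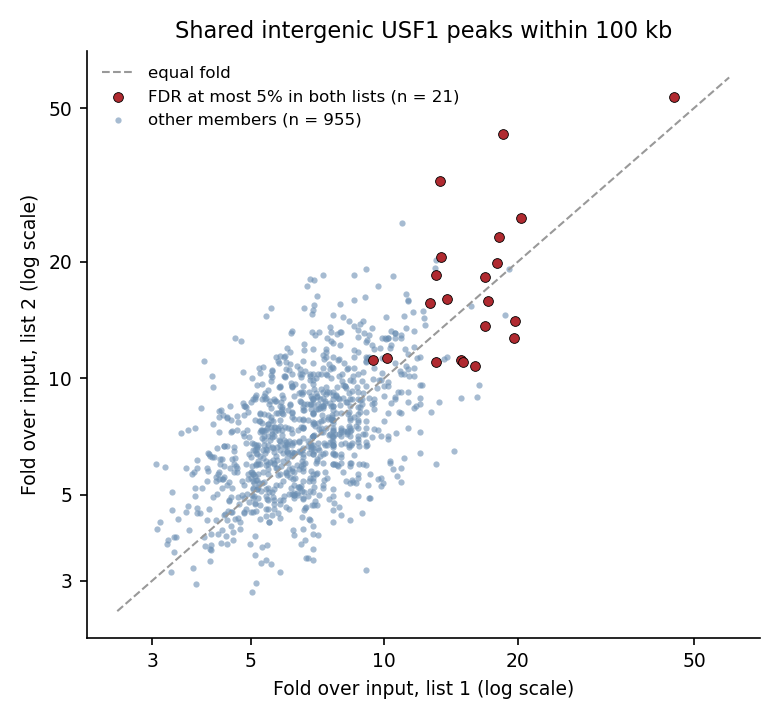
Fold over input of each of the 976 members in list 1 (x axis) and list 2 (y axis), both on log scales; the dashed line marks equal folds, and red outlined points are the 21 members with an FDR of 5% or less in both lists. The interquartile range is 5.4 to 8.15-fold in list 1 and 5.70 to 9.21-fold in list 2, and the CD300LB member is at the upper right.

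Across the 976 members, tag counts of the 2 lists had a Spearman's rho of 0.733 (Pearson's r of log2 counts 0.783) and folds a rho of 0.518 (Pearson's r of log2 folds 0.577). These are across peaks that share their libraries and their calls, and no p is given. Summits of the 2 lists lay a median of 34 bp apart, and 788 members (80.7%) had them within 100 bp. For shared peaks at protein-coding gene ends the median was 50 bp and the share within 100 bp was 67.2%, while the beyond-100 kb intergenic peaks had 30 bp and 84.5%. Widths differed in the same order, since members had a median width of 769.5 bp in list 1 and 880 bp in list 2 and gene-end peaks one of 1088 and 1325 bp. A single list 2 peak was overlapped in all but 8 members, which overlapped 2.

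Set beside the 1907 shared peaks at protein-coding gene ends, members had fewer tags but not lower folds. The median tag count was 51 in list 1 and 58 in list 2 for members, against 85 and 100 for gene-end peaks. The median fold was 6.6 and 7.26 for members, against 5.69 and 6.6 for gene-end peaks. The upper tail went the other way: the highest 10% of members began at 10.2-fold in list 1 and 11.9-fold in list 2, and the highest 10% of gene-end peaks at 10.6-fold and 15.5-fold. Shared intergenic peaks beyond 100 kb (863) resembled the members, with median folds of 6.97 and 7.44 and median tag counts of 44 and 48, and so did the 1385 shared peaks inside protein-coding genes, with 6.51-fold and 7.06-fold and 55 and 60 tags. These differences are over peaks of 2 lists and were not tested.

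**Figure D3:**
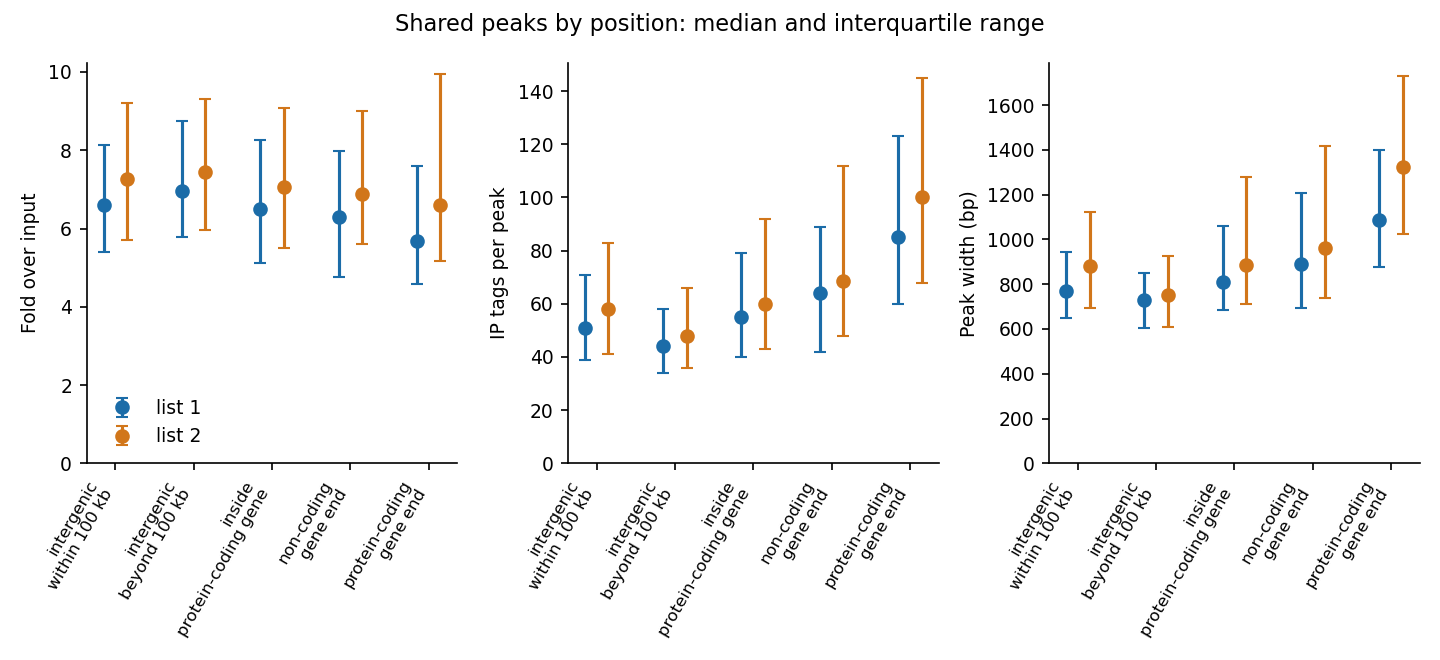
Fold over input, IP tags per peak and peak width in bp of shared peaks by position, with intergenic peaks within 100 kb at the left; points are medians and bars interquartile ranges, with list 1 in blue at the left of each pair and list 2 in orange at the right. Median tag counts and widths are lower for intergenic peaks within 100 kb than for peaks at protein-coding gene ends in both lists, and median folds are higher.

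Of the list 1 peaks in the same position class, 976 of 2817 overlapped a list 2 peak (34.6%, 32.9 to 36.4%), against 37.3% of all list 1 peaks, 22.4% of those beyond 100 kb (863 of 3851) and 75.8% of those at protein-coding gene ends (1907 of 2517). In list 2, 987 of 6480 peaks of the class were shared (15.2%, 14.4 to 16.1%), against 19.6% of all list 2 peaks. The list 2 share was 16.8% beyond 100 kb and 36.3% at protein-coding gene ends. The class was thus shared more than peaks beyond 100 kb in list 1 but not in list 2. Sharing was more frequent in higher bands of list 1 fold. It was 21.97% below 5-fold (152 of 692), 36.8% at 6 to 8-fold (344 of 935), 56.9% at 8 to 12-fold (219 of 385) and 83.0% at 12-fold or more (44 of 53). At protein-coding gene ends it was 71.8% below 5-fold (669 of 932) and 100% at 12-fold or more (142 of 142). The overlap itself chose the members, so these shares describe the class and are not support for it.

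Members were found at similar density over all distances that the choice allowed. Their median distance to the nearest protein-coding gene end was 27515 bp, with an interquartile range of 11646 to 53678 bp, and 214 (21.9%) lay within 10 kb. Per megabase of genome that met the position rule, 731.3 Mb in all, there were 1.33 members. The density was 1.44 at 1 to 2 kb (36 members), 1.31 at 2 to 5 kb (85), 1.08 at 5 to 10 kb (93), 1.31 at 10 to 20 kb (166), 1.45 at 20 to 50 kb (327) and 1.33 at 50 to 100 kb (269). The same measure was 0.933 beyond 100 kb, 1.14 inside protein-coding genes and 26.3 within 1 kb of their ends. Peaks thus showed a high density at the gene ends themselves and no steady decline from 1 to 100 kb. The genome counted lies between the first and the last protein-coding gene of each chromosome and includes assembly gaps and bases to which reads cannot be placed uniquely.

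Median tags and widths were highest in the bin next to genes, while median folds had no common order in the 2 lists. At 1 to 2 kb members had median tag counts of 72 in list 1 and 78 in list 2 and median widths of 943.5 and 1184 bp. At 50 to 100 kb the counts were 49 and 58 and the widths 752 and 852 bp. Median folds at 1 to 2 kb were 6.41 and 7.47, and at 50 to 100 kb 6.77 and 7.06. Strand was known for the nearest gene of 797 members through the RefSeq promoter table: 433 were nearest to a 5′ end and 364 to a 3′ end. Per megabase of genome nearest to each kind of end this was 1.39 and 1.37 members. Median folds at 5′ ends were 6.55 and 7.35, and at 3′ ends 6.79 and 7.295. The medians differed less between the 2 kinds of end than between the lists.

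**Figure D4:**
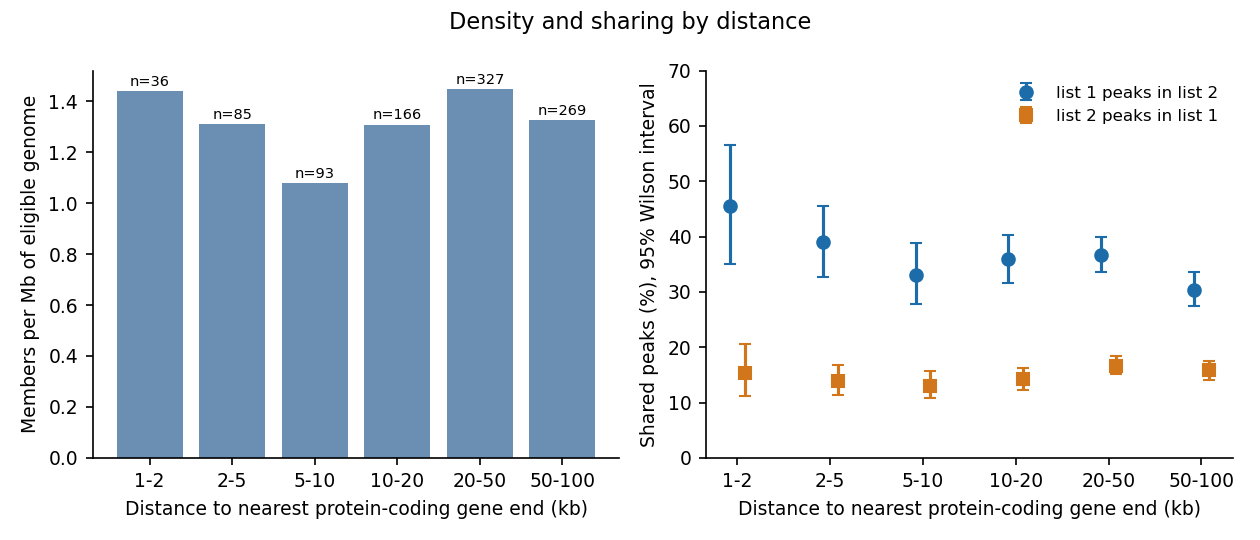
Left, members per megabase of genome that meets the position rule, by distance in kb to the nearest protein-coding gene end, with the number of members above each bar; right, the share of list 1 peaks of the class found in list 2 (circles) and of list 2 peaks found in list 1 (squares), with 95% Wilson intervals. Densities run from 1.08 to 1.45, and list 1 shares from 30.4% to 45.6%.

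By chromosome, members per megabase ranged from 0.562 on chromosome 4 (24 members) to 2.23 on chromosome 19 (37 members), and chromosome 1 held the most (94). All peaks of the class followed a similar low on chromosome 4, with 1.59 per megabase in list 1 and 3.58 in list 2, against 3.5 and 11.0 on chromosome 19. Chromosome 5 had 7.78 peaks of the class per megabase in list 1 and 10.8 in list 2, and 1.75 members (75). Its stretch from 10 to 50 Mb, where list 1 is dense with 1366 peaks against 425 in list 2, held 13 members, and without it 963 members remained.

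Members inside and outside non-coding genes had similar folds. Of the 976, 220 (22.5%) had their centre inside one and 207 (21.2%) inside a long non-coding RNA gene. Those inside non-coding genes had median folds of 6.72 and 7.13, and the 756 outside all genes had 6.55 and 7.28. Both folds reached 8 in 36 of the 220 (16.4%) and 139 of the 756 (18.4%), against the background of 18.2% given above.

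Some members stood in groups. With gaps of at most 50 kb, 145 members (14.9%) had a neighbour, in 60 pairs, 3 groups of 3 and 4 groups of 4, the largest size. The same share was not computed for other shared peaks or for scattered positions, so it does not show that members group more than such peaks. The tightest group of 4 spans 4.815 kb past the 3′ end of GRHL1, at chr2:10010414-10015228. In order along the chromosome its members had 6.91, 7.2, 17.16 and 9.1-fold in list 1 and 5.67, 10.27, 15.81 and 9.56-fold in list 2, so the same member was highest in both lists. Another group lies between ZMYND8, which encodes a chromatin reader, and NCOA3, over 48.0 kb of chromosome 20, with 3.49, 7.95, 10.14 and 4.41-fold in list 1 and 7.23, 13.2, 11.29 and 5.3-fold in list 2. MN1, a transcriptional regulator that is rearranged in leukaemia and meningioma, had 4 members over 59.8 kb of chromosome 22 with folds of 5.65 to 8.81 in list 1 and 4.73 to 8.42 in list 2. The last group of 4 surrounds DDIT4, a stress-induced inhibitor of mTORC1, with 1 member 13168 bp from its 5′ end and 2 at 19975 and 22001 bp past its 3′ end, the fourth being nearest to the co-chaperone gene DNAJB12. Its folds were 3.85 to 5.71 in list 1 and 4.49 to 7.68 in list 2. A group of 3 at FABP1, the liver fatty acid binding protein, and THNSL2 had folds of 6.82 to 11.77 in list 1 and 5.12 to 9.22 in list 2, with 1 member 1194 bp from the 5′ end of FABP1. This group was named after its values were seen.

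**Figure D5:**
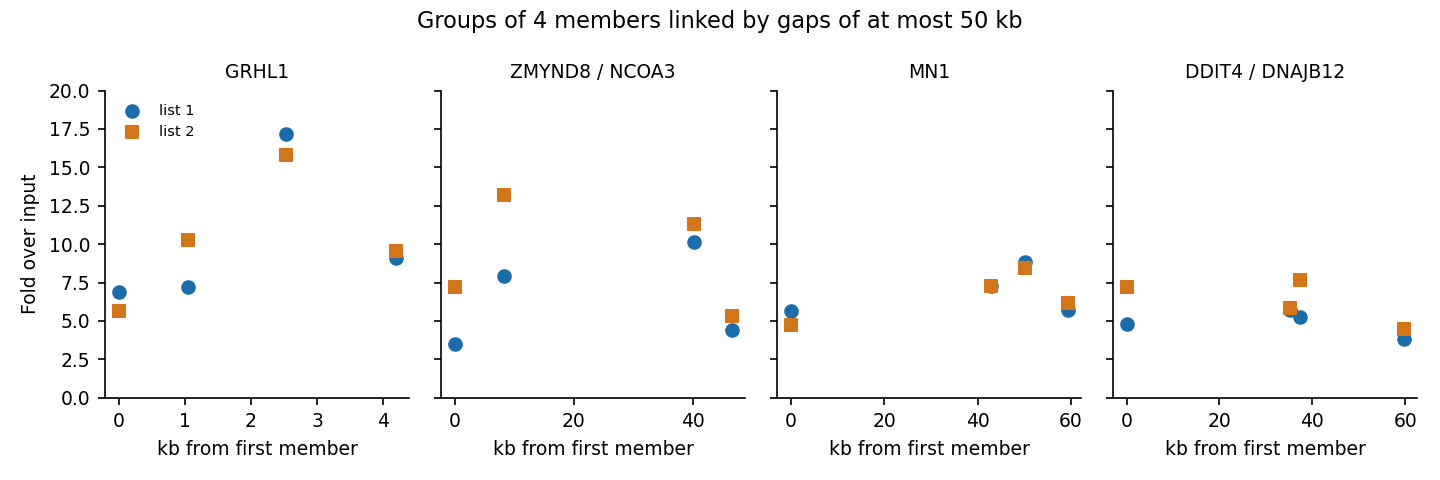
Fold over input of the members in the 4 groups of 4, plotted against kb from the first member of the group; circles are list 1, squares list 2, and panels are titled by the nearest protein-coding genes. The GRHL1 group covers 4.815 kb and holds the highest fold of the 4 panels, 17.16 in list 1 and 15.81 in list 2.

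The members named 885 nearest protein-coding genes, of which 807 had 1 member, 67 had 2, 9 had 3 and 2 had 4 (GRHL1 and MN1). That is 4.43% of 19974 protein-coding genes. A shared peak at the gene's own end was present for 94 of the 885 (10.6%, 8.76 to 12.8%), against 11.5% of all protein-coding genes and 10.03% of the genes nearest to list 1 peaks of the class that were not shared (113 of 1127). The share at the nearest genes was thus near the background. For the 103 members whose nearest gene had an end peak, the end peak carried more tags in both lists in 75 cases and fewer in both in 10, with median tags of 56 and 67 for members and 92 and 107 for end peaks. The member had the higher fold in both lists in 50 of the 103. Where a gene had several shared peaks at its ends, the one of highest lower fold was used. The 103 members lay nearest to the 94 genes, so some were set against the same end peak.

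Examples of a gene with both kinds of peak include MET, CEBPB, INSIG1 and RRAGB. MET, a receptor tyrosine kinase, had a member 4617 bp past its 3′ end with 9.9-fold and 11.3-fold and an end peak of 5.13-fold and 6.98-fold. INSIG1, which restrains sterol synthesis, had a member 27584 bp from its 5′ end with 8.04-fold and 9.83-fold and an end peak of 12.97-fold and 11.77-fold. RRAGB, a Rag GTPase of amino acid sensing, had a member 7099 bp from its 5′ end with 7.65-fold and 7.08-fold and an end peak of 28.04-fold and 33.29-fold. CEBPB, a liver and acute-phase bZIP factor, had a member 92601 bp past its 3′ end with 9.03-fold and 16.24-fold and an end peak of 4.59-fold and 7.63-fold. So the member was the stronger by fold at MET and CEBPB and the weaker at INSIG1 and RRAGB, in both lists. Of 87 promoter windows of such genes that a shared peak covered, 25 held CACGTG (28.7%, 20.3 to 39.0%), against 5.05% of 971 windows of nearest genes with no shared end peak and 8.34% of 22132 windows of protein-coding genes. Only the 87 windows were chosen for lying under a shared peak. The share over all promoter windows under a shared peak was not computed, so the contrast describes end peaks and not the members. The windows of INSIG1 (chr7:155297628-155297927, plus strand) and RRAGB (chrX:55717499-55717798, plus strand) are shown, with CACGTG in capitals, because they give the E-boxes inside the end peaks of these genes. They do not lie under the members, which are 27584 and 7099 bp from the 5′ ends.
INSIG1: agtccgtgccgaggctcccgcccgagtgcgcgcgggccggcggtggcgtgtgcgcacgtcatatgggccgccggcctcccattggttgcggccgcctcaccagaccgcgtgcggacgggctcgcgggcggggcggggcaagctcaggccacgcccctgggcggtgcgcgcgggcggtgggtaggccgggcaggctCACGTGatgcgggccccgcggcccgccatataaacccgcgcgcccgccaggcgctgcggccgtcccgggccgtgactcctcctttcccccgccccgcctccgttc
RRAGB: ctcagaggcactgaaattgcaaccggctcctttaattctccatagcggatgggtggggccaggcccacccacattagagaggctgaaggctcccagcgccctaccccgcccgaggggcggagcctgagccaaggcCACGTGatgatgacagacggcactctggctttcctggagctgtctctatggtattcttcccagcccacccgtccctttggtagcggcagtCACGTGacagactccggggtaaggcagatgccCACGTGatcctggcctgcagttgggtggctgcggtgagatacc

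Nearest genes were also counted by function. Of 50 lysosome and autophagy genes, 4 (8%) were nearest to a member, against 4.43% of all protein-coding genes. They were MITF, a regulator of lysosomal and pigment genes (7.65-fold and 7.66-fold), RRAGB, RRAGC, another Rag GTPase (5.39-fold and 8.85-fold), and LAMP2, a lysosomal membrane glycoprotein (6.91-fold and 3.39-fold). MITF was also the single bHLH-ZIP gene of 23. Of 24 vacuolar ATPase genes 1 had members, ATP6AP2, an accessory subunit with peaks 22179 and 5308 bp from its 5′ end. The farther of these had 7.29-fold in list 1 and 18.51-fold in list 2, the nearer 5.68-fold and 7.49-fold.

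Metabolic genes gave 3 of 35 (8.57%), PPARGC1A, a coactivator of mitochondrial and gluconeogenic genes (14.93-fold and 8.88-fold, 2033 bp past the 3′ end), INSIG2 (8.32-fold and 8.16-fold) and INSIG1. Hepatocyte factors and products gave 2 of 30 (6.67%), GPC3 and NR5A2, a nuclear receptor of bile acid synthesis (11.08-fold and 14.53-fold, 51040 bp past the 3′ end). Clock genes gave 2 of 21 (9.52%), BHLHE40 with 2 members and BHLHE41 with 1, both E-box repressors of the clock loop. The BHLHE41 member had 259 and 281 tags with 5.29-fold and 8.84-fold. Of the BHLHE40 members, that 56603 bp from the 5′ end had 6.92-fold and 8.85-fold, and that 1558 bp past the 3′ end had 6.25-fold and 3.94-fold. CRELD2 was the single unfolded protein response gene of 25 (5.7-fold and 8.15-fold).

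Among 45 bZIP genes 8 were nearest to a member (17.8%), led by the CEBPB member described above. NFE2L3 followed (6.03-fold and 6.78-fold), then CREB3L2 (5.17-fold and 6.65-fold), and the others were CREB3L3, BACH1, MAF, ATF3 and FOS. Among 33 cell cycle and tumour genes 6 were (18.2%), with 7 members. EGFR, a growth factor receptor, had 2, at 13.11-fold and 11.05-fold and at 5-fold and 4.52-fold. MET followed, then CCNE1, cyclin E1 (5.59-fold and 10.46-fold), and the others were VEGFA, CDK6 and CDKN2C. These 2 shares were the highest of the 12 hand-written lists, but genes with long intergenic flanks have more genome nearest to them, and no list was tested. Over all list 1 peaks of the class, shared or not, 10.1% of protein-coding genes were nearest to one, as were 11 of the 45 bZIP genes and 8 of the 33 cell cycle and tumour genes.

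Of markers of other cell types, 0 of 15 immune cell markers and 0 of 15 neuronal markers were nearest to a member, and 1 of 15 fibroblast and endothelial markers was (PECAM1, 5.27-fold and 5.11-fold), beside 4.43% of all protein-coding genes. Lists of 15 are too short to tell such counts from that share. Transcription factor families, which the series title puts at its centre, were counted by symbol, with families chosen after the strongest members were seen. The ID and BHLHE genes gave 4 of 8, with ID4 at 7.58-fold and 12.49-fold beside ID1 and the BHLHE pair. Grainyhead-like genes gave 2 of 3, GRHL1 and GRHL3. Over all list 1 peaks of the class, shared or not, these families also gave 4 of 8 and 2 of 3. Both are too small, and were chosen too late, to compare with the share of all protein-coding genes. Forkhead genes gave 5 of 52 (9.62%), KLF and SP genes 2 of 27 (7.41%), nuclear receptors 2 of 48 (4.17%), IRF genes 1 of 9, SOX genes 1 of 19 and HOX genes 0 of 39. C2H2 zinc finger genes gave 16 of 509 (3.14%), with ZNF92 and ZNF850 (12.68-fold and 15.65-fold) the strongest, and olfactory receptors 11 of 390 (2.82%), both below the 4.43% of all protein-coding genes.

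The values on both sides of the limits follow, with no test. The 3 members closest to the 100 kb limit, nearest to ATP10B, ANKRD28 and PTPRM at 99926, 99465 and 99420 bp, had 7.34 to 9.7-fold in list 1 and 6.74 to 17.32-fold in list 2. The 3 shared peaks just beyond it, nearest to FAM9A, TMTC3 and LMO7 at 100023, 100026 and 100473 bp, had 6.92 to 15.29-fold and 5.56 to 8.85-fold. Closest to the 1 kb limit among members were those nearest to AUH, PECAM1 and CXCL12, at 1009, 1013 and 1031 bp from some annotated gene end, with 5.27 to 13.12-fold and 5.11 to 20.19-fold. Just inside 1 kb lay shared peaks at CDK16, OR2G3 and a non-coding gene end near ANTXR2, at 999, 992 and 995 bp, with 4 to 7.28-fold and 5.73 to 6.6-fold.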

How the data were processed

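USF1 occupancy was measured by ChIP-seq in 2 IP and 2 input libraries of Huh7 cells. The authors deposited 2 peak lists, 1 for each IP with its own input and no pooling. Per the file headers, the caller was MACS 1.4.2, with p below 1e-05, 1 tag kept per position and the larger library scaled to the smaller. The submitters' processing notes also name Bowtie2, deepTools, HOMER and GRCh38 without saying what each did. Per the file headers, each peak has a count of IP tags, a fold (ratio) over input and local background, a score of minus 10 times log10 of the Poisson p, and an FDR in percent from swapped samples. The depth of each library is in the report; input counts per peak were not used here, so no interval is given for a fold.

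Genes came from the RefSeq table of GRCh38.p14, and strand and promoter sequence (250 bases before to 50 after a start) from its promoter table, which gave strand for the nearest gene of 797 members. Each member was paired with the list 2 peak it overlapped most. Computations used Python 3.11.15, numpy 2.4.6, pandas 2.3.3 and scipy 1.17.1, with figures in matplotlib 3.10.9, and the overlap and position steps were checked on simulated peaks. No test was made, because both lists chose the members and peaks are not replicates.

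Named regions were the 10 members of highest lower fold, the 5 of highest lower tag count, the 3 largest groups (4 tied), the 3 nearest each limit and up to 3 members per gene list. Further names (members of low FDR in both lists, those over promoter windows, further genes of a list, families by symbol) were added after their values were seen. The members, lists and this rule were chosen with earlier results of these data known. The planned E-box count at summits needs a genome, which was not used here, and promoter windows were searched instead. Alternatives tried were stricter thresholds, other overlap rules, limits and positions, and each list alone.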

Additional observations from a re-analysis of the deposited data

How the results depend on the processing

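Of 89 values recomputed under alternatives, 44 stayed within the spread set for them and 45 moved. These values are counts, shares and medians, which have no direction, and the comparisons of fold or tags between lists and position classes were not recomputed. Where both folds had to reach 8, there were 175 members. They were 39.95% of the list 1 peaks of the class at 8-fold or more in list 1. A peak counted only if its list 2 partner reached 8 too, and the shares for score and FDR below were formed likewise. The members had a median lower fold of 9.24, 12% had an FDR of 5% or less in both lists, and 3.43% had a neighbour within 50 kb. Of them, 8 lay nearest to a listed gene. With a score of at least 100 the same values were 210, 41.3%, 8.505, 10%, 6.19% and 10, with a median distance of 20611 bp. Where both FDRs had to be 5% or less, they were 21, 91.3%, 13.46, not applicable, 0% and 2, with 29140 bp. Reciprocal overlap of at least 50% gave a share of 30.95%, 27001.5 bp and 12.2% with a neighbour. Summits within 100 bp gave 28.04%, 28141 bp, 11.6% and 20 members nearest to a listed gene. Members taken from list 2 gave 15.2% and 28095 bp. A limit of 50 kb gave 36.6%, 18056 bp and 12.7%. Over 5 kb from all gene ends the median distance was 35608 bp, outside non-coding genes it was 26381.5 bp, and 6.66% of members had a neighbour within 10 kb.

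With 1 list alone, where nothing is shared, the count of peaks ran from 2817 to 6480, the median fold from 5.53 to 5.92, the share with an FDR of 5% or less from 0.816 to 24.4%, the median distance from 25861.5 to 30621 bp, the share with a neighbour from 37.8 to 53.5%, and the number nearest to a listed gene from 72 to 166. The lower share and count at low FDR came from list 1 alone, and the count of 21 members rests on that list. Leaving out chromosome 5 from 10 to 50 Mb, added after the data were seen, moved no value beyond its spread. The cause of the other changes was not tested. No paired analysis was possible because the values come from no test and IP and input of 1 number are already combined within each list. The E-box count at summits was not run, since genome sequence was not used here. The lowest tag count of a member was 19 in each list, and how the precision of a fold depends on tags was not tested.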
